A study of Homo sapiens with 9 samples.

Results

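The baseline state of K562 cells was described from the 3 libraries titled SCR, out of 9 libraries in the series. The 3 were taken by their titles alone, and no measured value entered the choice. K562 is a human line derived from a chronic myelogenous leukaemia and grows as erythroleukaemia cells, and the labels spell it both K562 and K652. SCR stands for a pool of non-targeting siRNA, which has no intended target in the cell. The other 2 groups, of 3 libraries each, received siRNA against the helicases DHX34 or UPF1 and entered no comparison here. All groups shared the line, the repeated siRNA transfection, the RPMI medium with serum and antibiotics, and the harvest on day 4. The study's methods describe the replicates as separate biological replicates of this 1 line. Every library comes from transfected cells, so the state of the line and any response to transfection cannot be told apart.

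RNA was enriched by poly(A) tails before sequencing. Each deposited table gave, for each of 203027 transcripts, an expected count and a TPM. An expected count is the number of reads that salmon, the quantifier, assigned to a transcript, and it need not be whole because reads shared by similar transcripts are divided among them. TPM is the count divided by the transcript's effective length (the number of positions at which a fragment could start) and scaled so that the transcripts of every library add up to the same total. The TPM of a gene is the sum over its transcripts. The libraries held from 73478797 to 93268759 expected counts. Any 2 of them correlated at r = 0.995 over genes on the log2(TPM + 1) scale and at 0.977 to 0.978 over transcripts, given as a description since genes share libraries and annotation. They differed by more than counting noise, with a chi-square per degree of freedom of 8.24 to 9.6, so none was a repeat deposit of another. A count of 0 allows up to 3 counts, or 0.0322 to 0.0408 CPM (counts scaled to the library total) in these libraries, and this floor covers counting error only.

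Red cells are made from progenitors under the control of GATA1, TAL1 and KLF1, transcription factors that switch on globin, heme and membrane genes together. Globin tetramers pair a chain of the alpha-like cluster on chromosome 16 with a chain of the beta-like cluster on chromosome 11. Within each cluster different genes are used in turn during development. BCL11A is the best known repressor of the fetal genes in adult cells. In chronic myelogenous leukaemia a fusion of BCR to ABL1 gives a tyrosine kinase that acts through STAT5, PIM kinases, MYC and BCL2L1. Most genes also make several transcripts by alternative splicing, and some of those carry a premature stop codon and are degraded by nonsense-mediated decay (NMD), in which UPF1 is the core helicase.

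A gene was counted as expressed where it reached 1 TPM in each of the 3 libraries. This held for 11709 of 58214 genes, or 20.1%. Among protein-coding genes 10223 of 19782 were expressed (51.7%), with a median of 1.66 TPM over all of them. Among long non-coding RNA (lncRNA) genes 1138 of 15144 were expressed (7.51%). No read was assigned to 31732 genes in any of the 3 libraries. The level of 49 expressed genes rested on fewer than 10 counts in at least 1 library.

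The most abundant transcripts came from translation, the mitochondrial genome and globin genes. Of the 25 matched genes with the highest mean TPM, 8 encoded ribosomal proteins, 6 lay on the mitochondrial genome, 5 were globin genes, 3 were other protein-coding genes and 3 were non-coding. The order was led by MT-ATP8, a subunit of the mitochondrial ATP synthase, at 16506, 18795 and 18673 TPM in SCR-1, SCR-2 and SCR-3. HBG2, the G-gamma fetal globin, followed at 13174, 12348 and 12120.4 TPM. The lowest value of MT-ATP8 lay above the highest value of HBG2. MT-ND4L, a subunit of respiratory complex I, reached 9541, 9927 and 10054 TPM, and EEF1A1, the factor that brings aminoacyl-tRNA to the ribosome, reached 9630.4, 9542 and 9624 TPM. SCR-1 was lower for MT-ND4L than for EEF1A1 and the other 2 libraries were higher, so the order of this pair was not fixed across libraries. Of the 24 neighbouring pairs in the order, 17 overlapped in their values. RPS18, a protein of the small ribosomal subunit, reached 9362, 8419 and 8719 TPM, and FTL, the ferritin light chain that stores iron, was at 5216, 4933 and 4973 TPM. The order leaves out transcripts without a match in the annotation, of which ENST00000368567, at 6004, 5841 and 5996 TPM, would have stood between RPS23 and PPIA by its mean. PPIA, the prolyl isomerase cyclophilin A, varied least among the 25, at 5856, 5828 and 5882 TPM.

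**Figure D1:**
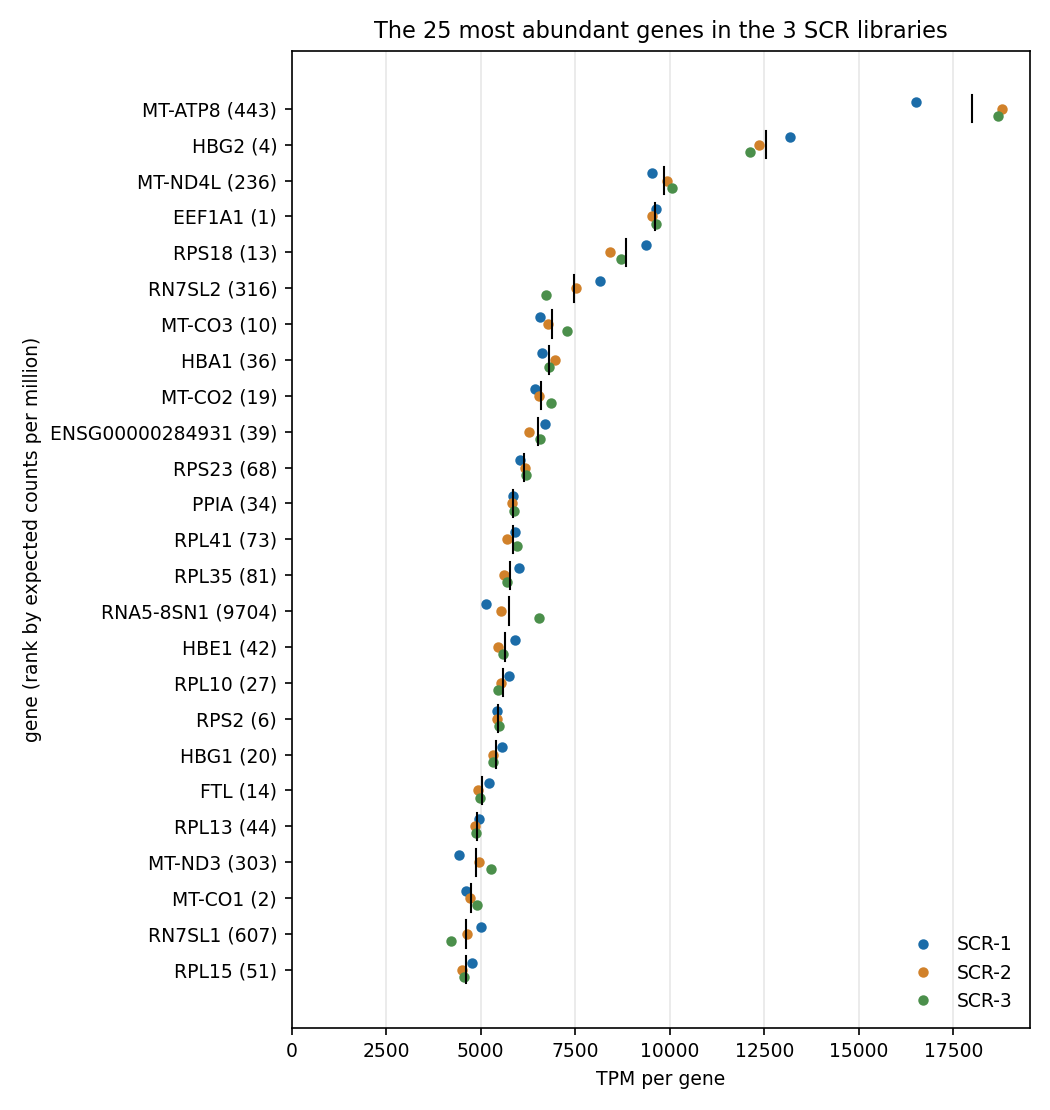
TPM per gene of the 25 genes with the highest mean, 1 point for each of the 3 SCR libraries and a bar at their mean, with the rank of the gene by expected counts in parentheses. MT-ATP8 (16506 to 18795 TPM) and HBG2 (12120.4 to 13174 TPM) stand apart from the rest, while RNA5-8SN1 ranks 9704 by counts.

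Several of these ranks differed widely from the ranks by reads. The effective length of MT-ATP8 was 19.7 bases on average and its rank by expected counts was 443. RNA5-8SN1, the 5.8S ribosomal RNA, had an effective length of 1 base, and its 5149.99, 5538.92 and 6538 TPM rested on 376, 389 and 591 counts. Of the 25 genes, 6 fell outside the first 100 by counts and 9 were also among the first 25 by counts. On the CPM scale EEF1A1 led with 17160.3 ± 380 (SD, n = 3), followed by MT-CO1, the catalytic subunit of cytochrome oxidase, with 5999 ± 184. HSP90AB1, a cytosolic chaperone, came next with 5041 ± 75.4 and HBG2 with 4607 ± 243. HBG2 was thus among the first 4 genes on both scales, while MT-ATP8 was not.

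TPM was concentrated in few genes. The first 10 genes held 9.57% ± 0.0370 of the TPM of matched transcripts (SD, n = 3), the first 100 held 40.7% and the first 1000 held 73.7%. All 79 ribosomal protein genes found were expressed, and they held 24.2, 23.5 and 23.9% of TPM. The mitochondrial genome held 6.37, 6.78 and 6.93%, with 6.43% on average from its 13 messenger RNAs. Globin genes held 4.32, 4.15 and 4.16%, and the ferritin pair FTL and FTH1 held 0.956, 0.963 and 0.965%. SCR-1 had the largest globin share and the smallest mitochondrial share of the 3. On expected counts, which give long transcripts more weight, the first 10 genes held 5.67%, the first 100 held 22.1% and the first 1000 held 55.4%. By this measure the ribosomal proteins held 10.3%, the mitochondrial genome 2.49% and the globins 1.57%.

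The beta-like globin genes were used in an embryonic and fetal pattern. The gamma genes together, HBG1 and HBG2, with a read-through gene that joins them (ENSG00000284931), reached 25442, 23939.7 and 24012 TPM, which was 81.1% ± 0.182 of all beta-like TPM. HBE1, the embryonic epsilon globin, reached 5902, 5457 and 5600.0 TPM, or 18.7% ± 0.181. HBB, the adult beta globin, was at 0.724, 0.897 and 0.45 TPM on 27, 24 and 21 counts. The gamma genes were highest in SCR-1, and HBB was under 1 TPM in every library. HBD, the minor adult delta globin, was at 43.1, 42.7 and 45.1 TPM. Nearly all of it, 42.6, 42.2 and 44.1 TPM, was assigned to HBD-204, whose annotated span (GRCh38, chr11:5232838-5243657, minus strand) extends toward the gamma genes, whereas HBD-201 was at 0.481, 0.523 and 1.02 TPM.

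Most alpha-like TPM came from HBA1 and HBA2. HBA1 was at 6623, 6955 and 6805 TPM and HBA2 at 2090.1, 2098 and 2109 TPM, 82.5% ± 0.432 of alpha-like TPM together, and HBA1 took 76.4% ± 0.411 of the pair. HBZ, the embryonic zeta globin, was at 1776, 1758 and 1763 TPM, or 16.4% ± 0.319 of the alpha-like genes. HBQ1, the theta globin, was at 132, 113 and 113 TPM, with SCR-1 above the other 2 libraries. HBM, the mu globin, was under 1 TPM in all libraries, at 0.359, 0.0817 and 0.19 TPM. Beta-like exceeded alpha-like TPM by a ratio of 2.96, 2.70 and 2.75. AHSP, the chaperone of free alpha chains, was at 27.5, 26.9 and 27.5 TPM, so 9 of the 11 genes of the globin list were expressed.

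The split of the gamma signal among HBG1, HBG2 and the read-through gene rests on few bases. HBG2 took 51.3% ± 0.702 of it, the read-through gene 26.6% ± 0.597 and HBG1 22.1% ± 0.206. The coding sequences of HBG2-201 and HBG1-201 are both 441 bases long and differ, counted from 1 at the first base of the start codon with the HBG2 base first, only at T227C and G410C. The read-through transcript carries the HBG2 base at position 227 and the HBG1 base at position 410. The 61 bases around each change are shown to make plain how little separates the pair, with the differing base in capitals. They were read from GENCODE 44 transcripts on GRCh38, minus strand, HBG2 at chr11:5254350-5254410 and HBG1 at chr11:5249426-5249486 for position 227, and chr11:5253281-5253341 and chr11:5248363-5248423 for position 410.
HBG2 around 227: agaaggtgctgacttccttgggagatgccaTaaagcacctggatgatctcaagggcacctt
HBG1 around 227: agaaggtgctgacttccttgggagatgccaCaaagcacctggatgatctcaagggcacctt
HBG2 around 410: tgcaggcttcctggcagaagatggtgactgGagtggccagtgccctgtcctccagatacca
HBG1 around 410: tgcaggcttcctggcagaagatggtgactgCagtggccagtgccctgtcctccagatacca
Over whole transcripts, untranslated ends included, 97 of the 556 words of 31 bases in HBG2-201 (17.4%) occurred in no transcript of the other globin genes compared. This held for 32 of 557 words (5.75%) in HBG1-201 and for 2 of 558 (0.358%) in the read-through transcript. These words come from GENCODE 44, in which HBG1-201 has 587 bases, while the version quantified had 779. The summed counts of the 3 genes do not depend on the split, while their single values are uncertain. Their summed TPM, and the shares and ratios built on it, depend on the split in part through effective length. That length averaged 520 bases for HBG1, 372 for HBG2 and 345 for the read-through gene. The single values of HBA1 and HBA2 are uncertain as well, since 17.7% and 17.6% of their words were unique.

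Erythroid transcription factors were expressed at high levels, 15 of the 16 listed, with a median of 66.0 TPM. GATA1, the master factor of the lineage, was at 204, 195 and 196 TPM, and other factors of the lineage followed it closely. LYL1, a helix-loop-helix factor, was at 186, 180.5 and 179.6 TPM, and NFE2, the large subunit of an enhancer-binding dimer, at 176, 168 and 170.4 TPM. KLF1, the zinc finger activator of globin genes, was at 158, 154 and 151 TPM. The ranges of these 4 factors did not overlap, so their order was the same in every library. LMO2 and LDB1, the bridging proteins of the GATA1 complex, were at 121, 125 and 123 and 68.6, 73.9 and 67.3 TPM. TAL1 itself was at 33, 35.6 and 35.3 TPM and ZFPM1, the cofactor also known as FOG1, at 9.91, 10.6 and 9.64 TPM. Repressors included GFI1B at 60.7, 65.6 and 61.3 TPM and IKZF1 at 20.6, 27.3 and 23.5 TPM. MYB, a factor of proliferating progenitors, was at 67.1, 72.9 and 68.3 TPM. BCL11A was the only member below the 1 TPM limit, at 0.0168, 0.0113 and 0.00272 TPM, which lies under every other gene of this list in every library.

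Other regulators linked to fetal globin, a list written after values had been seen, were present in 14 of 15 cases, with BCL11A again the exception. LIN28B, an RNA-binding protein of fetal cells that blocks let-7 processing, was at 29.2, 33.8 and 32.4 TPM. IGF2BP1, another fetal RNA-binding protein, was at 41, 46.7 and 44.2 TPM. HIC2, a repressor of BCL11A, was at 43.1, 47.8 and 46.2 TPM. ZBTB7A, another repressor of the gamma genes, was at 14.3, 15.6 and 13.4 TPM and SOX6, a cofactor of BCL11A, at 2.51, 3.49 and 3.39 TPM. CHD4 and GATAD2A, parts of the NuRD chromatin complex, were at 119, 114 and 119 and 82.5, 84.5 and 79.2 TPM. LIN28B and IGF2BP1 were thus above ZBTB7A and SOX6 in all 3 libraries.

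Red cell surface and membrane genes were expressed in 23 of 25 cases, with a median of 23.3 TPM. BSG, the basigin antigen, led at 437, 447 and 443 TPM. RHAG, the Rh-associated channel, was at 320.0, 337 and 341 TPM, and glycophorin C (GYPC) at 219, 213 and 218 TPM. GYPB, the S/s sialoglycoprotein, was at 190.1, 193 and 216 TPM, and because it has close copies this value is uncertain. TFRC, the transferrin receptor that brings in iron, was at 177, 188 and 181 TPM. The cytoskeleton was lower, with EPB41 (protein 4.1) at 50.3, 56.2 and 58.2 TPM, ANK1 (ankyrin) at 45.9, 47.8 and 45.3 TPM and the spectrin SPTB at 17.3, 19.8 and 18.2 TPM. EPOR, the erythropoietin receptor, was at 13.1, 13.4 and 12 TPM. SLC4A1, the band 3 anion exchanger and the main membrane protein of mature red cells, stayed under 1 TPM in all libraries at 0.668, 0.887 and 0.856 TPM. The other member below the limit was the complement receptor CR1 at 0.184, 0.169 and 0.213 TPM.

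Heme and iron genes were expressed in 21 of 22 cases, with a median of 32.7 TPM. FTL and FTH1, the ferritin chains, were at 5216, 4933 and 4973 and 4085, 4437 and 4414 TPM. FTL lay above FTH1 in each library. Along the heme pathway the erythroid first enzyme ALAS2 was at 20.2, 25.3 and 19.2 TPM and its housekeeping counterpart ALAS1 at 18.2, 19.6 and 19.4 TPM. Their ranges overlapped, with ALAS2 higher in SCR-1 and SCR-2 and ALAS1 higher in SCR-3. ALAD, the next enzyme, was at 6.78, 6.62 and 6.92 TPM. UROD, which trims the side chains of the porphyrin ring, was far higher at 736, 691 and 681 TPM. CPOX was at 2.38, 3.75 and 3.06 TPM, PPOX at 29.6, 29.4 and 26.5 TPM, and FECH, which inserts the iron, at 96.1, 95 and 87.8 TPM. Among carriers, SLC25A37 (mitoferrin) was at 67.3, 67.1 and 60.0 TPM, TMEM14C at 301, 287 and 294 TPM and the glycine carrier SLC25A38 at 1.34, 1.32 and 3.17 TPM. Within the same libraries the enzymes of the pathway thus ran from 2.38 TPM for CPOX to 736 TPM for UROD. HMOX1, the heme-degrading oxygenase, was the member below the limit, at 0.00842, 0.0828 and 0 TPM.

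Markers of other blood lineages were mostly silent. Of 20 megakaryocyte and platelet genes 5 were expressed and 8 were listed at 0 in all libraries, and the list summed to 154 to 163 TPM. GP1BB, the beta chain of the platelet glycoprotein Ib, supplied most of the sum at 124, 135 and 133 TPM, while its partners GP1BA and GP9 were at 0.148, 0 and 0 TPM and at 0. The neighbouring gene SEPTIN5 has a transcript, SEPTIN5-210, that overlaps GP1BB on the same strand, at 6.05, 7.59 and 6.36 TPM, and its part in the value was not tested. ITGA2B, the platelet integrin, was at 2.14, 1.31 and 1.23 TPM, its partner ITGB3 at 0.136, 0.134 and 0.119 TPM, and PF4 and PPBP were listed at 0.

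Of 22 neutrophil and monocyte genes 6 were expressed, 3 were at 0 and the sum ran from 184 to 191 TPM. CST3, the widely made protease inhibitor cystatin C, was at 103, 98.1 and 101 TPM. SPI1, the myeloid factor PU.1, was at 21.9, 20.9 and 21 TPM, LYZ (lysozyme) at 14.1, 14.6 and 13.8 TPM and CD33, a surface lectin, at 14.3, 13.2 and 11.5 TPM. Also expressed were MS4A3 at 20.2, 19.2 and 23.7 TPM and CD68 at 16.7, 16.4 and 17.0 TPM. The granule proteases and the myeloperoxidase that define the lineage were near 0, with MPO at 0.00445, 0 and 0.00362 TPM and ELANE at 0, 0 and 0.0158 TPM. CEBPA, the granulocyte factor, was at 0.271, 0.342 and 0.305 TPM and the monocyte receptors CD14 and CSF1R at 0, 0 and 0.184 and 0, 0.0294 and 0.0268 TPM.

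Of 12 mast cell, basophil and eosinophil genes 2 were expressed and 3 were at 0, with a sum of 136 to 139.96 TPM. GATA2, which precedes GATA1 in progenitors, was at 129, 131 and 127 TPM, and PRG2, an eosinophil granule protein, at 8.87, 7.95 and 8.75 TPM. The tryptases TPSAB1 and TPSB2 and the carboxypeptidase CPA3 were listed at 0, and the receptor KIT was at 0.399, 0.51 and 0.404 TPM. GATA1 was above GATA2 in each library. Of 16 stem and progenitor genes 4 were expressed and 7 were at 0, with a sum of 56.0 to 57.0 TPM. Expressed were the ligand ANGPT1 at 22.3, 24.1 and 23.8 TPM, HOXB4 at 22, 21.9 and 21 TPM, MECOM at 9.27, 8.65 and 9.51 TPM and MEIS1 at 1.86, 2.25 and 1.85 TPM. CD34, the surface marker of progenitors, was at 0.116, 0.0893 and 0.0715 TPM, and FLT3, HOXA9, PROM1 and ERG were listed at 0.

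Lymphoid lists held 1 expressed gene each and summed to 24.3 to 25.1 TPM for T and NK cells and to 3.99 to 4.76 TPM for B cells. Among 16 T and NK cell genes, 2 of them at 0, it was CD3D, a chain of the T cell receptor complex, at 23, 22.8 and 22.8 TPM, while CD3E, CD3G and CD247 of the same complex were at or under 0.224 TPM. The MANE Select transcript of CD3D, the reference transcript agreed between the main annotation groups, carried 13.8, 13.5 and 14.4 TPM of it. Among 13 B cell genes, 3 were at 0, with CD79A, a chain of the B cell receptor complex, at 0.169, 0.124 and 0.171 TPM and MS4A1 among those listed at 0. Of 12 fibroblast and endothelium genes 2 were expressed and 5 were at 0, with a sum of 4.04 to 5.15 TPM. They were the adhesion molecule PECAM1 at 3.45, 2.54 and 2.2 TPM and the collagen chain COL1A2 at 1.56, 1.76 and 1.54 TPM. COL3A1 was at 0, 0 and 0.0233 TPM, and CDH5 and KDR were listed at 0.

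Simple-epithelial keratins were expressed in this blood line. Of 10 epithelial genes 5 were expressed, with a sum of 786 to 801 TPM. This share of 50% was near the 51.7% of all protein-coding genes. KRT8 and KRT18, which pair to form the filaments of simple epithelia, were at 317, 315 and 314 and 306, 301 and 299 TPM. KRT19, a further keratin of the same tissues, was at 95.7, 94.4 and 93.5 TPM and EPCAM, an adhesion molecule, at 71.6, 73.4 and 71.9 TPM. MUC1, a mucin, was the lowest of the expressed members at 10.2, 9.80 and 7.80 TPM. KRT8 was above KRT18 in each library. CDH1 (E-cadherin), ESRP1 (an epithelial splicing factor) and CLDN4 (a tight junction protein) were at or near 0, the highest value being 0.0748 TPM, and KRT5 and KRT14 were listed at 0. The keratins KRT8, KRT18 and KRT19 were thus high where the junction genes lay below the 1 TPM limit.

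**Figure D2:**
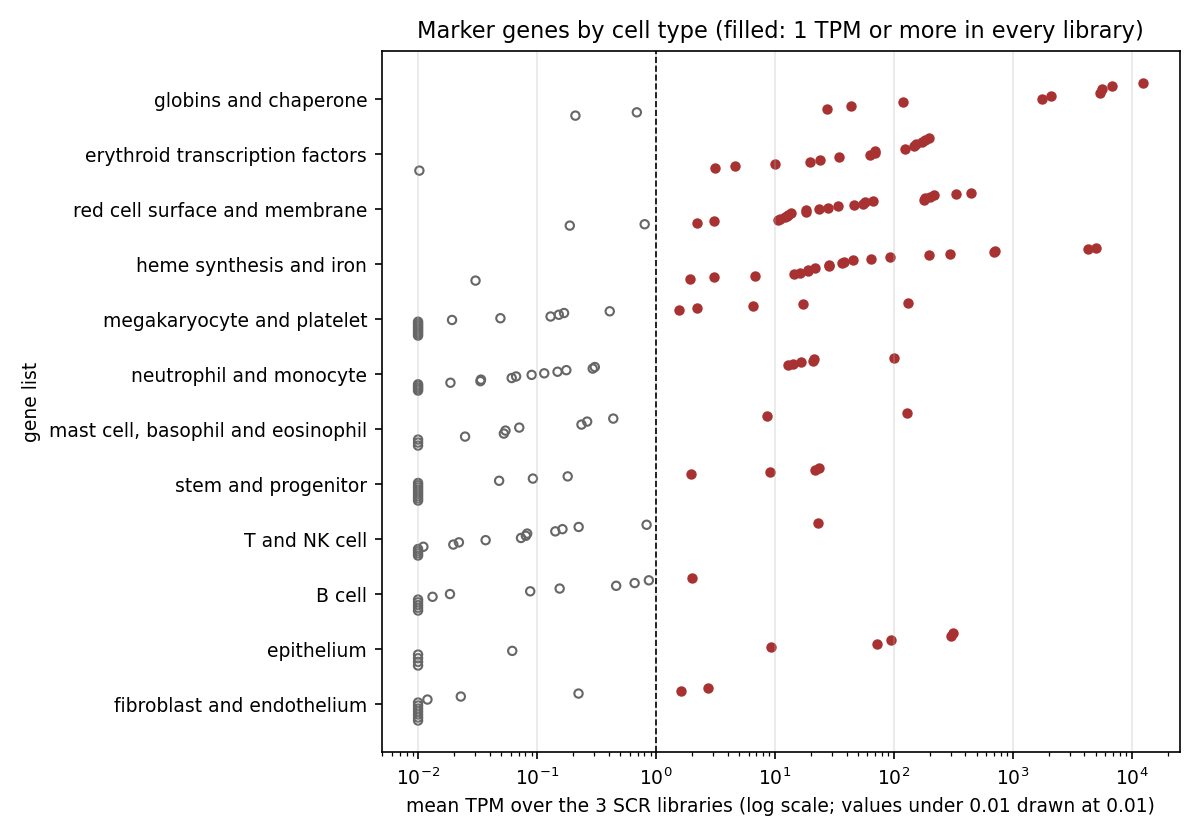
Mean TPM over the 3 SCR libraries (log scale) of each gene in 12 marker lists, filled where the gene reached 1 TPM in every library and drawn at 0.01 where it was lower than that. In the 4 erythroid lists 68 of 74 genes are filled, and in the other 8 lists 26 of 121.

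The genes of the BCR-ABL pathway were expressed in 21 of 22 cases, with a median of 47.8 TPM. BCR and ABL1 were at 30.6, 31.4 and 28.2 and 42, 48.3 and 44.3 TPM, values that include reads of the fusion, since no fusion transcript was in the reference. Most of the BCR signal, 77.6% ± 5.19 (SD, n = 3), was assigned to BCR-202, and the MANE Select transcript BCR-201 took 13.2% ± 1.4. By counts BCR-202 held 79.0% and BCR-201 20.5%. For ABL1, ABL1-201 took 91.5% ± 0.800 and ABL1-202 8.48% ± 0.800. The part of fusion reads in the splits of both genes was not tested. Downstream, STAT5A and STAT5B were at 181, 195 and 185 and 50.2, 52.7 and 49.2 TPM, and their target kinases PIM1 and PIM2 at 200.1, 196 and 195 and 115, 119 and 118 TPM. MYC was at 191, 187 and 186 TPM. Of the survival genes BCL2L1 was at 121, 125 and 121 TPM and MCL1 at 88.7, 95 and 93.6 TPM, while BCL2 was the member below the limit at 0.514, 0.51 and 0.443 TPM. BCL2L1 was above MCL1, and MCL1 above BCL2, in every library. The feedback inhibitors CISH and SOCS2 were at 37.9, 36.9 and 36.8 and 69.9, 70.3 and 74.6 TPM.

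A stretch of the short arm of chromosome 9 around CDKN2A gave almost no reads. All 12 matched genes of the 13 listed for this region were under 1 TPM and 8 were at 0 in all libraries. CDKN2A and CDKN2B, which encode inhibitors of CDK4 and CDK6, were listed at 0. MTAP, a methionine salvage enzyme next to them, was at 0.289, 0.214 and 0.172 TPM. The silent run of protein-coding genes extended from SLC24A2 to TUSC1 (GRCh38, chr9:19507452-25678444, 6171 kb). It held 28 protein-coding genes, of which 23 were at 0 and 16 were interferon genes, and 88 genes of any type, of which 77 were at 0 and none reached 1 TPM in every library. RPS6 before it was at 1961, 1838 and 1946 TPM, ACER2 at its edge at 1.07, 1.37 and 1.06 TPM and CAAP1 after it at 12.3, 11.9 and 12.7 TPM. Of 3892 such runs of unexpressed protein-coding genes in the genome, it ranked 10 by gene number and 13 by length. The longest by gene number, 71 genes from OR4B1 to LRRC55 on chromosome 11, consists largely of olfactory receptors. RNA levels do not distinguish an absent gene from a silent one.

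**Figure D3:**
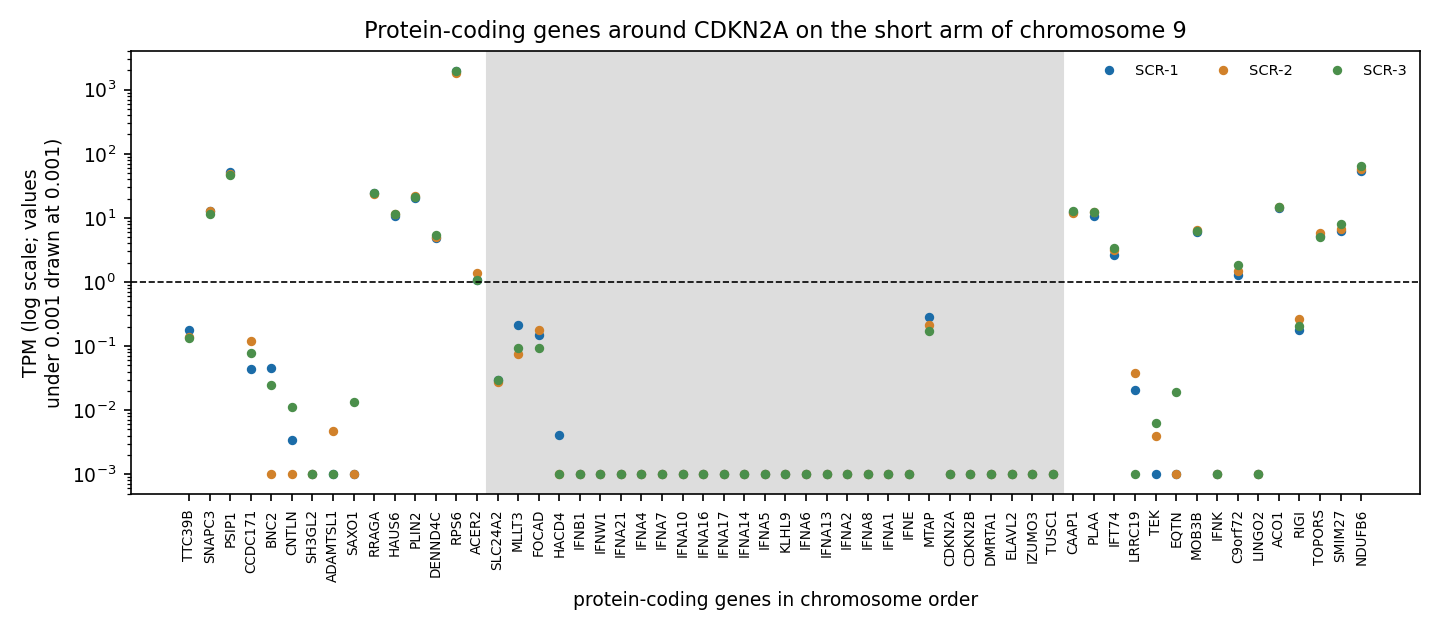
TPM (log scale) of 58 protein-coding genes in chromosome order on the short arm of chromosome 9, with points for the 3 SCR libraries and values under 0.001 drawn at 0.001. In the grey stretch from SLC24A2 to TUSC1 no point exceeds 0.289 TPM, while CAAP1 beside it lies at 11.9 to 12.7 TPM.

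Genes of growth were expressed throughout. All 23 proliferation genes passed 1 TPM, with a median of 98.7 TPM, led by MCM7 of the replicative helicase at 339, 351 and 340.2 TPM and CDK4 at 289, 289 and 294 TPM. The mitotic cyclin CCNB1 was at 243, 246 and 245 TPM and the replication clamp PCNA at 243, 238 and 244 TPM. CCNA2 varied most in this list, at 102, 120.2 and 83.7 TPM, with SCR-3 lowest and SCR-2 highest. All 19 glycolysis genes were expressed, with a median of 252 TPM. GAPDH was at 2853, 2839.7 and 2836 TPM, ENO1 (enolase) at 2683, 2709 and 2733 TPM and ALDOA (aldolase) at 1471, 1486 and 1505 TPM. The hexokinase HK1 was at 239, 261 and 256 TPM and HK2 at 18.4, 19.9 and 19.2 TPM, so HK1 was the higher in every library. All 20 chaperone and translation genes were expressed, with a median of 833 TPM. HSPA8, the constitutive HSP70, was at 2665, 2650.5 and 2766 TPM and the elongation factor EEF2 at 1411, 1479 and 1474 TPM.

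All 16 NMD genes, with the helicases that the other libraries of the series target, were expressed, with a median of 30.7 TPM. RBM8A and MAGOH, the Y14 and Mago proteins of the exon junction complex, were highest at 255, 263 and 263 and 255, 255 and 259.8 TPM. UPF1 was at 46.4, 51.4 and 49.9 TPM, UPF2 at 8.59, 9.86 and 9.3 TPM and UPF3B at 21, 20.9 and 20.1 TPM. SMG1, the kinase of UPF1, was at 14.4, 17.1 and 15.1 TPM and the endonuclease SMG6 at 5.6, 5.79 and 5.66 TPM. DHX34 was at 18.4, 19.4 and 18.2 TPM. UPF1 exceeded DHX34 in every library.

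Further lists of surface and tumour genes were written after values had been seen. For class I antigen presentation, B2M, the light chain, was at 534, 533 and 573 TPM, while the classical heavy chains were low, with HLA-B at 0.316, 0.233 and 2.93 TPM and HLA-C at 1.16, 1.21 and 0.89 TPM. HLA-E was at 15.8, 17.4 and 16.6 TPM. HLA-B rested on 30.9, 22.0 and 21.9 counts, so SCR-3 had the highest TPM of this gene without more reads, and since these genes are polymorphic and close copies of each other, their single values are uncertain. The peptide transporter subunits TAP1 and TAP2 were at 1.76, 1.78 and 1.64 and 12.3, 9.24 and 12.7 TPM, and the class II regulator CIITA at 0.0915, 0.0741 and 0.027 TPM. In all, 7 of 21 genes of this list were expressed and 4 were at 0. Of 18 oncofetal and cancer-testis genes 12 were expressed. PRAME, a tumour antigen, was at 1093, 1075 and 1028 TPM, MAGEA3 at 130.2, 133 and 130.3 TPM, SSX1 at 108, 112 and 111 TPM and SSX2 at 64.2, 63.4 and 63.1 TPM. MAGEA3 and SSX2 have close copies, so their values are uncertain. MAGEA4 and CTAG1B of the same class were at or under 0.255 TPM.

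By the biotype that the annotation gives each transcript, protein-coding transcripts held 84.5% ± 0.195 of TPM (SD, n = 3). Transcripts with a retained intron held 4.27% ± 0.0930, transcripts of coding genes without a defined coding sequence 2.99% ± 0.0432, lncRNA 2.35% ± 0.0859 and transcripts annotated as NMD substrates 2.27% ± 0.0324. Processed pseudogenes, the copies of messenger RNA in the genome, held 0.626% ± 0.00720. The coefficient of variation of these 6 shares between libraries was at most 3.66%. On expected counts protein-coding transcripts held 91.1%, retained introns 2.74% and NMD substrates 2.31%, so the NMD share was nearly the same on both scales while the other 2 were not. The median length of retained-intron transcripts in the tables was 737 bases, against 1549 for protein-coding ones. Counted by the type of the gene, protein-coding genes held 94.1% ± 0.142. Within them 89.8% of TPM was in protein-coding transcripts and 4.47% in retained-intron transcripts.

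Small non-coding classes varied more between libraries. The class miscellaneous RNA, mostly RN7SL1 and RN7SL2, the RNA of the signal recognition particle, held 1.37, 1.26 and 1.14%. RN7SL2 was at 8155, 7509.6 and 6736 TPM and RN7SL1 at 5008, 4633 and 4211 TPM. Ribosomal RNA encoded in the nucleus held 0.530, 0.569 and 0.672%. SCR-1 was highest in the first class and lowest in the second, and SCR-3 the reverse. These RNAs carry no regular poly(A) tail. The mitochondrial ribosomal RNAs, which do carry short tails, held 0.269, 0.265 and 0.272%. On expected counts miscellaneous RNA held 0.0738% on average, nuclear ribosomal RNA 0.000566% and mitochondrial ribosomal RNA 0.287%. Miscellaneous RNA was thus above nuclear ribosomal RNA on both scales, while mitochondrial ribosomal RNA moved from the lowest on TPM to the highest by counts.

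Most expressed genes used a leading transcript together with others. Of the 11709 expressed genes 10424 had 2 or more transcripts in the tables, with a median of 8. The dominant transcript, the one with the highest TPM of its gene, held a median of 64.7, 64.3 and 65.5% of the gene's TPM in the 3 libraries. It was the same transcript in all 3 for 9179 genes (88.1%). In 1718 genes (16.5%) it held 90% or more in every library, and in 2437 genes (23.4%) less than 50% in every library. The median share fell with the number of transcripts, from 95.2% for 2 transcripts to 40.8% for more than 20. The share of genes with a fixed dominant transcript was 76.7% for genes under 5 TPM and 97.1% over 100 TPM.

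**Figure D4:**
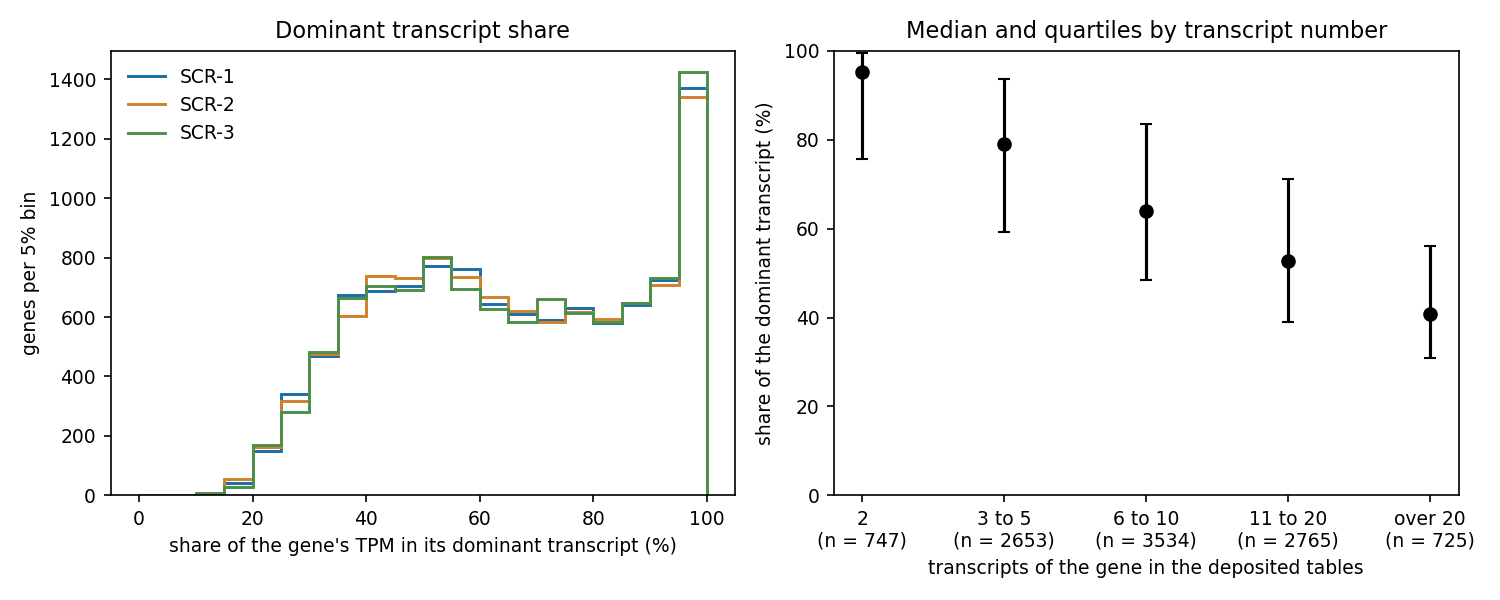
Left, number of genes by the share of TPM in their dominant transcript, in bins of 5%, for each SCR library. Right, median (point) and quartiles (bars) of that share by the number of transcripts of the gene, which falls from 95.2% to 40.8%.

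Of 9195 protein-coding genes with a MANE Select transcript in the tables, that transcript was dominant in all libraries for 5813 (63.2%) and in none for 2781. In 752 of 9667 protein-coding genes with several transcripts (7.78%) the dominant transcript was not protein-coding in any library. Of these, 281 had a transcript without defined coding sequence in the lead, 214 an NMD substrate and 214 a retained-intron transcript. Those leading transcripts were short, with a median of 900.5 bases against 2572.5 bases for coding ones. By expected counts 428 genes had a non-coding transcript in the lead, 363 of them shared with the 752.

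Ribosomal protein genes headed this group. RPL14 (large subunit) had RPL14-208, with a retained intron, at 3153, 3185 and 3358 TPM, 89.6% ± 0.781 of the gene, and the MANE Select RPL14-202 at 320.3, 296 and 283 TPM. RPL13 was divided between RPL13-213, with a retained intron, at 47.2% ± 0.377, and the protein-coding RPL13-214 at 44.8% ± 0.299. RPL37-202, without a defined coding sequence, took 74.9% ± 0.205 of RPL37, RPL11-205 50.6% ± 1.19 of RPL11, and RPS28-201 71.5% ± 0.602 of RPS28. Each kept its lead in all 3 libraries. By counts the lead passed to coding transcripts in RPS28, where RPS28-203 took 82.7%, and in RPL13, where RPL13-214 took 50.6%. The other genes among the 10 most abundant were OAZ1, which limits polyamine synthesis, with OAZ1-208 at 54.5% ± 0.55, the ATP synthase gene ATP5PB with ATP5PB-201 at 40.3% ± 1.2, glutamine synthetase (GLUL) with GLUL-211 at 30.5% ± 1.38, the initiation factor gene EIF3M with EIF3M-209 at 26.9% ± 0.667, and HNRNPA1. By counts the coding GLUL-202 (24.4%) exceeded GLUL-211 (8.92%), and the coding EIF3M-201 (28.2%) exceeded EIF3M-209 (15.7%).

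HNRNPA1, a splicing repressor, had an NMD-annotated transcript in the lead. HNRNPA1-205 was at 867, 867 and 856 TPM, 39.5% ± 0.638 of the gene, ahead of the protein-coding HNRNPA1-201 at 719, 743 and 757 TPM and the MANE Select HNRNPA1-202 at 483, 488 and 491 TPM. Their order on TPM was the same in every library. Other splicing factors and tropomyosins of the isoform list carried NMD-annotated transcripts while a coding transcript kept the lead on TPM. TRA2B-205 took 21.1% ± 1.98 of TRA2B, SF3B1-202 11% ± 1.27 of SF3B1 and SRSF2-208 5.53% ± 0.794 of SRSF2. By counts TRA2B-205 held 18.1% and SRSF2-208 5.03%, but SF3B1-202, which is 600 bases long, held 1.20%. TPM4-201 took 45.2% ± 2.8 of TPM4, close to the 52.1% ± 2.78 of the coding TPM4-218, and in each library TPM4-218 was ahead on TPM, while by counts TPM4-201 was ahead in SCR-1. TPM1-214 took 31.9% ± 1.54 of TPM1. For DHX34 the coding DHX34-201 was at 14.8, 15.7 and 15.8 TPM and the NMD-annotated DHX34-202 at 2.99, 3.21 and 2.17 TPM. UPF1 was carried by UPF1-201 at 86.6% ± 1.9.

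Of the 58 genes in the isoform list 53 were expressed with 2 or more transcripts, and 48 of these kept their dominant transcript in all libraries. It held 90% or more in 11 genes and under 50% in 16. GATA1 was the most uniform of the erythroid factors, with GATA1-202 at 99.8% ± 0.0554 and GATA1-201 at 0.175% ± 0.0554. TAL1-202 held 83.2% ± 0.985 of TAL1 and GFI1B-202 70.3% ± 2.19 of GFI1B. LMO2 was divided between LMO2-206 at 52.1, 54.3 and 54.6 TPM and LMO2-202 at 51.8, 52.5 and 48.8 TPM, with LMO2-206 ahead in all libraries though by less than 2 TPM in SCR-1 and SCR-2. LMO2-206 is 390 bases long with no defined coding sequence, and by counts it held 6.94% of LMO2 against 66.6% for the coding LMO2-202. MYB-205 held 55.8% ± 3.35 of MYB and its MANE Select form MYB-203 13.2% ± 0.319. EPB41-231 held 76.7% ± 2.53 of EPB41 and ALAS2-201 71.7% ± 4.25 of ALAS2. PRAME had the lowest dominant share of the list, with PRAME-201 at 24.5% ± 0.389 and 5 transcripts at 10% or more in every library.

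Mutually exclusive exons showed clear choices. PKM, pyruvate kinase, is made with either of 2 alternative exons of 167 bases, which give the M1 or the M2 enzyme, and the M2 form is the one known from proliferating cells. Transcripts with the exon of PKM-202, that of the M2 enzyme (GRCh38, chr15:72202454-72202620, minus strand) summed to 331 ± 2.87 TPM and those with the exon of PKM-201 (chr15:72203022-72203188) to 5.27 ± 0.514 TPM. The exon of PKM-202 was used in 98.5, 98.2 and 98.5% of the TPM that held either. The exons differ at 62 of their bases (62.9% identity), which are in capitals below, so reads over them can be told apart.
PKM exon of PKM-202: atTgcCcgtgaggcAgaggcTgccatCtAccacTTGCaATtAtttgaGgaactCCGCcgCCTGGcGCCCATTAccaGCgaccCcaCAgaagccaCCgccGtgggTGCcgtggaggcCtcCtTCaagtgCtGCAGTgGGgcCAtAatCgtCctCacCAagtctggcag
PKM exon of PKM-201: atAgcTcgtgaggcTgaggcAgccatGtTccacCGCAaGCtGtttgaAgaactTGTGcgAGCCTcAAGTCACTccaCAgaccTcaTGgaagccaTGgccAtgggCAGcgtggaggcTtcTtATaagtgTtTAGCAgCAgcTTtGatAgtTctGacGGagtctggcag

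CDC42, a small GTPase of the cytoskeleton, is made with either of 2 last exons. The end encoded by CDC42-202 (chr1:22091428-22091514, plus strand) was used in 73.7, 73.1 and 73.7% of TPM, 167 ± 1.98 against 60.1 ± 1.16 TPM for that of CDC42-201 (chr1:22089943-22090029). Both forms held over 20% of TPM in every library, while for PKM the exon of PKM-201 held under 2% of the TPM with either exon. The last 87 coding bases of each are shown because they encode the different tails of the protein, with the 32 differing bases in capitals.
CDC42-202 end: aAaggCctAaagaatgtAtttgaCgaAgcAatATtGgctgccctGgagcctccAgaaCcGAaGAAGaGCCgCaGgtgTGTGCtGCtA
CDC42-201 end: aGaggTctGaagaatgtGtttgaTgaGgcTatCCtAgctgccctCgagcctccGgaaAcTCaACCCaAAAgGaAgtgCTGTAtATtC

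MYL6, the essential light chain of non-muscle myosin, either includes or skips an exon of 45 bases (chr12:56160626-56160670) near its end. Skipping transcripts held 89.5, 89.4 and 88.8% of TPM, 781 ± 42.6 against 94.3 ± 3.58 TPM with the exon. The last 26 coding bases of each form (MYL6-207 at chr12:56161387-56161412 and MYL6-218 at chr12:56160626-56160651, plus strand) differ at 15 positions, in capitals.
MYL6-207 end: AgCtCgtCCgCATGGtGctgAATggC
MYL6-218 end: CgTtTgtGAgGCATAtCctgTCGggG
In CLTB, clathrin light chain B, an exon of 54 bases (chr5:176396479-176396532) that is known from neurons was skipped in 98.9, 99.5 and 99.3% of TPM. CLTA, its paralogue, was carried by CLTA-202 at 97.1% ± 0.369. PTBP1, a splicing repressor, was divided between PTBP1-201 at 51.7% ± 0.141 and PTBP1-202 at 37.4% ± 0.125, and its neuronal relative PTBP2 was at 6.83, 8.1 and 8.12 TPM.

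In the 1245 genes whose dominant transcript differed between libraries, the leading transcripts were close. The median gap from the first to the next transcript was 4.25 percentage points, against 51.4 in the genes with a fixed lead. Their median level was 6.69 TPM, against 18.4 TPM. The most abundant of them was NPM1, a nucleolar chaperone, with NPM1-202 at 863, 888 and 883 TPM and NPM1-204 at 894, 842 and 868 TPM. ACTG1 (gamma actin) had ACTG1-205 at 616, 671 and 695 TPM and ACTG1-201 at 653, 654 and 649 TPM. In both genes SCR-1 had the other order than SCR-2 and SCR-3 on TPM. By counts neither lead changed, since NPM1-204 was ahead of NPM1-202 in every library, and ACTG1-205 held 72.9% of ACTG1 against 9.62% for ACTG1-201, which is 471 bases long. Also among the upper 10 were NACA, H3-3B, LDHA, SRSF3, HNRNPL, SNHG32 and RUVBL2. H3-3B, which encodes histone H3.3, varied widely, with H3-3B-204 at 36.8, 195 and 0 TPM and H3-3B-206 at 328, 174 and 389 TPM. The sum of this pair was 365, 369 and 389 TPM. Both transcripts are 551 bases long and 108 of the 521 words of 31 bases in each (20.7%) were absent from the other, and their sum varied less between libraries than their split.

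Replicates agreed closely for genes with enough reads. Over the 6974 genes with a mean of 10 TPM or more the median coefficient of variation (SD over mean, n = 3) was 3.99%, with quartiles at 2.38 and 6.40%, and 6347 genes (91.0%) stayed under 10%. Over all 11709 expressed genes the median was 5.53%. It fell with level, from 14.9% at 1 to 3 TPM to 2.03% above 300 TPM, while the share that counting error alone would give fell from 7.17 to 0.479%. The common biological coefficient of variation, the part of the spread beyond counting error that edgeR estimated from 15534 genes, was 6.21%. For 8715 transcripts at 10 TPM or more the median was 4.60%.

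**Figure D5:**
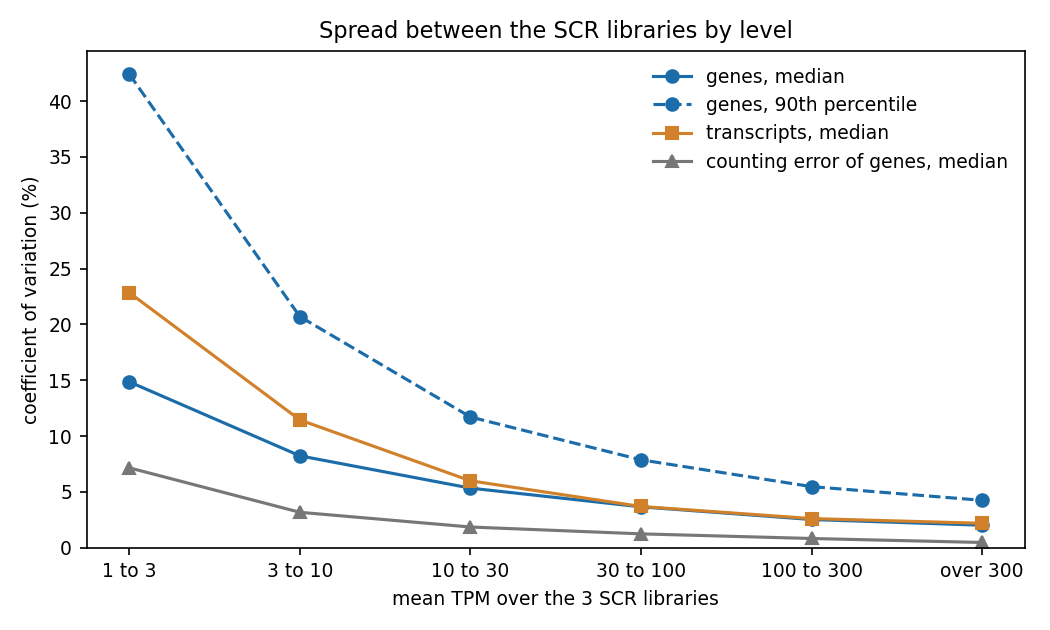
Coefficient of variation between the 3 SCR libraries (%) by mean TPM, as the median and the 90th percentile over genes, the median over transcripts and the median that counting error alone would give. The medians of genes fall from 14.9% to 2.03% and stay above counting error at each level.

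The genes of lowest spread at 10 TPM or more had varied functions. ANKRD54 (an ankyrin repeat protein) was at 14.8, 14.8 and 14.8 TPM, TSN (translin) at 71.3, 71.3 and 71.2 TPM and ATP5F1B (the beta subunit of ATP synthase) at 1237, 1239 and 1238 TPM. RPN1 of the glycosylation machinery was at 125, 125 and 125 TPM and PSMD3 of the proteasome at 228, 229 and 229 TPM. The others of the lowest 10 were MTLN, ASPSCR1, GORASP2, CCDC144NL and AP5M1, with coefficients of at most 0.15%. Median counting error was 0.479% for genes above 300 TPM and larger below that level. Coefficients this small lie under counting error, so they do not single these genes out as the steadiest.

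The least steady values mostly rested on few reads. Of the 22 genes over 50%, 19 had fewer than 100 counts on average. SNORA75, a small nucleolar RNA, was at 41.1, 0 and 0 TPM on 6 counts in SCR-1 and none elsewhere, and RPL39P16, a pseudogene, at 0, 0 and 133 TPM on 12 counts in SCR-3. SNORA13, SNORA20, SNORA22 and SNORA65 were each at 0 in SCR-1 and highest in SCR-3, on at most 9 counts, and SNORA79B had 4 counts, in SCR-1. The remaining 2 of the 10 most variable genes have no symbol. The lncRNA ENSG00000264558 was at 0, 0 and 30.1 TPM on 109 counts in SCR-3 and none elsewhere. The pseudogene ENSG00000242531 was at 0, 42.7 and 0 TPM on 3 counts in SCR-2. The lncRNA ERICH2-DT was at 0.383, 1.14 and 33.8 TPM on 41, 61 and 81 counts. Of its TPM in SCR-3, 33.2 came from ERICH2-DT-203, a transcript of 132 bases with 0, 0 and 3 counts. The 19 small nucleolar RNA genes at 10 TPM or more had a median of 92.5%, against 3.90% for 6621 protein-coding genes and 5.66% for 250 lncRNA genes. SCR-2 was the highest of the 3 libraries for 3353 of the 6974 genes and SCR-1 the lowest for 3129.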

How the data were processed

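Poly(A) libraries of K562 cells were quantified by the authors with salmon 1.5.2 against Ensembl 93 coding and non-coding transcripts (GRCh38), and the deposited expected counts and TPM of each transcript were used as they stand. Before deposit the authors' salmon run corrected GC bias. Its expected counts divide reads shared by similar transcripts among them, and TPM also depends on effective length. Identifiers were joined to GENCODE 44, which matched 97.9% of transcripts. Shares are percent of matched TPM. Both values were summed per gene with pandas 2.3.3.

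The 3 SCR libraries were grouped by title, separate cultures by the study's methods, and no groups were compared, so no test was run. The common dispersion was estimated by edgeR 4.0.16 in R 4.3.3 from rounded expected counts, with TMM factors of 0.993 to 1.01 and filterByExpr at a minimum count of 10, and was checked on simulated data. DESeq2 1.42.0 gave alternative size factors.

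Named were the 25 genes highest in mean TPM, members of the 23 gene lists, the 10 most abundant genes with a non-coding or a changing dominant transcript, and the 10 most and least variable genes. The same held for transcripts. GP1BB, HBD and CD3D transcripts were named after their values were seen, as was the neighbouring gene SEPTIN5. The members and lists were chosen with earlier results of these data known, and the lists of antigen presentation, oncofetal and cancer-testis genes and fetal globin regulators were added after values were seen. Some named genes and 1 list are not reported here.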

Additional observations from a re-analysis of the deposited data

Results flagged for a closer look

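Transcripts with no match in the annotation held 2.73% of TPM on average and entered none of the gene values. They appear here because they carry signal in data that the descriptions above do not use. The largest, ENST00000368567, had 6004, 5841 and 5996 TPM in SCR-1, SCR-2 and SCR-3, and ENST00000326199 had 3569.89, 3384 and 3357 TPM. The tables used here do not pair these identifiers with genes. Some ribosomal protein genes were low among their kind in the matched part, RPS10 at 254.6, RPL26 at 36.0 and RPS27 at 25.4 TPM on average, and whether unmatched transcripts belong to them was not tested.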

How the results depend on the processing

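Of 64 alternative values 39 were labelled unchanged and 25 moved. Unchanged meant within the spread between libraries for shares, within 1.5 times for counts of genes and equal after rounding for coefficients of variation. For the shares of total TPM, the mean with 1 library left out always lies within that spread. Those leave-out values could not move, so they do not bear on how firm the shares are. On expected counts in place of TPM the share of the 10 most abundant genes was 5.67%, of protein-coding transcripts 91.1%, of retained introns 2.74%, of NMD substrates 2.31%, of the mitochondrial genome 2.49% and of globins 1.57%. On the same scale the median share of the dominant transcript was 78.0% and 428 genes had a non-coding transcript in the lead. Without the mitochondrial genome the first 10 genes held 8.34%. Protein-coding transcripts held 94.1% by the type of the gene and 82.2% with unmatched transcripts in the total. At 10 TPM the median dominant share was 65.5%, 5906 genes kept their dominant transcript, 462 had a non-coding lead and the median coefficient of variation of genes was 3.88%. At the 1 TPM limit that median was 5.53%. It was 4.13% on TMM-scaled CPM, 9.88% over transcripts and 4.27 to 4.82% over genes with 1 library left out. An SD over fewer libraries has by itself a lower median, so these leave-out values do not show less spread. The common biological coefficient of variation was 7.11% without a filter on low counts, 6.20% with DESeq2 size factors and 5.20 to 7.17% with 1 library left out. The alternatives for globins and for non-coding leads were chosen after seeing the data. Values from few counts, as for small nucleolar RNAs, are limited by depth. No paired analysis was possible because no comparison between groups was made.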
